A study of Homo sapiens with 16 samples.

Results

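Hi-C contacts of K562 nuclei after 3 h and after 12 h of digestion with HindIII were compared in 4 of the 8 libraries of the series, chosen by the digestion time in the sample labels. They were replicates 1 and 2 at 3 h and replicates 1 and 2 at 12 h. These libraries account for 8 of the 16 deposited samples, because each library was sequenced in 2 runs, on a HiSeq and on a NovaSeq instrument, and the runs of a library were added together. K562 is an established human leukaemia line. Both groups were fixed with formaldehyde at 2%, cut with HindIII, filled in with nucleotides that included biotin-marked dATP, ligated inside the nuclei, sonicated and enriched on streptavidin beads. The groups differ in the labels only by the length of digestion, and neither carries a genetic change or drug treatment beyond the line itself. Libraries of 0.25 h and 1 h made in the same way served here to define chromatin classes and boundaries and to estimate the spread. The submitters varied the digestion to find boundaries that the enzyme reaches early, and the step from 3 h to 12 h is the latest of the series. The labels do not say whether replicates were separate cultures, so every p-value measures only the spread between these samples, which may be technical.

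In Hi-C a restriction enzyme cuts the fixed chromatin, neighbouring ends are ligated, and each ligated pair is counted as a contact. Stretches of a chromosome belong to an active, gene-dense compartment or to a less active, gene-poor one, and stretches contact others of their own kind more than the opposite kind. Within these lie domains separated by boundaries that few contacts cross. Small gene-rich chromosomes are known to lie together in the nuclear interior, and gene-poor ones nearer the nuclear envelope.

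The 3 h libraries held 160355301 and 123979209 contacts (replicates 1 and 2), and the 12 h libraries held 196649572 and 171841607. Both 12 h libraries were thus deeper than both 3 h libraries, and the 4 earlier libraries held 71696245 to 134133654. Of these totals the first run gave only 14913564 and 15112558 contacts at 3 h and 20237350 and 18375701 at 12 h. Counts from the first run alone thus rest on far fewer contacts. In the label check, chr9:133000001-134000000 and chr22:23000001-24000000 were joined by 5882 to 29120 contacts in every library, 73.6 times the expected number over all libraries. This pair of regions is the place of the BCR-ABL1 fusion by which the line is known.

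Coverage of the genome changed at the late step. Of 27756 bins of 100 kb, 13713 changed in coverage between 3 h and 12 h, 49.4% of the bins tested (limma with Benjamini-Hochberg adjustment, threshold 0.05). None passed between 0.25 h and 1 h, where 2555 had an unadjusted p under 0.05, and none between 1 h and 3 h, where 1877 did. Adjacent steps share libraries, so the late step was also tested against the step from 0.25 h to 1 h, which has none in common with it. The change at the late step differed from that at the early step in 4091 bins for coverage (14.7%) and in 12274 for self-contacts (44.2%). It differed for 59 of the pairs of chromosomes 1 to 22 and X (23.3%), 16 of 30 compartment class pairs (53.3%), 22 of 69 chromosome summaries (31.9%) and 73 of 129518 pairs of 1 Mb bins (0.0564%). It differed for none of the bins' ratios of trans to cis contacts (984 at an unadjusted p under 0.05), none of 22 distance classes (5) and none of 2762 boundary scores (134). This test was added after the data had been seen.

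Contacts between opposite compartment classes fell at 12 h. Bins of 500 kb were divided into 5 equal classes by the compartment eigenvector of the 0.25 h and 1 h libraries. These libraries are outside the contrast of 12 h with 3 h, but they enter its estimate of the spread. They are themselves compared at the earlier steps. The eigenvector was taken from cis contacts within each chromosome. Trans contacts to gene-rich over gene-poor chromosomes only set its sign and the choice of eigenvector. Class 5 is the end that went with contacts to gene-rich chromosomes, at correlations of 0.559 to 0.924 by chromosome, and class 1 the opposite end. For each pair of classes the mean of observed over expected contacts was taken, separately within chromosomes (cis) and between them (trans), after each library had been balanced so that all bins had equal totals. Of the 30 class pairs 21 changed, 70% of those tested, of which 11 rose (36.7%) and 10 fell (33.3%; limma, Benjamini-Hochberg). Between 0.25 h and 1 h 1 of the 30 changed (3.33%), and between 1 h and 3 h none did. In 28 of the 30 the 3 h and 12 h libraries did not overlap. With either 3 h replicate or 12 h replicate 1 left out, 7 class pairs rose and 9 fell, and without 12 h replicate 2, 10 rose and 9 fell.

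Within chromosomes, contacts of class 1 with class 5 stood at 0.407 and 0.412 of expected in the 3 h libraries and at 0.358 and 0.363 in the 12 h libraries. Both 12 h libraries lay below both 3 h libraries, a log2 fold change of −0.18 (SE 0.00988; limma, adjusted p = 1.06e-06). Class 1 with class 4 fell from 0.555 and 0.561 to 0.519 and 0.522, and class 2 with class 5 from 0.576 and 0.582 to 0.543 and 0.547. The fall was smaller for these nearer classes, at −0.10 and −0.09 on the log2 scale. Class 5 with itself moved the other way, from 1.95 and 1.96 to 2.03 and 2.04, a log2 fold change of 0.06 (SE 0.00633; limma, adjusted p = 6.23e-05). Class 1 with itself did not pass the test, at 1.47 and 1.45 in the 3 h libraries and 1.502 and 1.477 in the 12 h libraries (log2 fold change 0.02, SE 0.0120; limma, adjusted p = 0.0924). It passed with the replicate number as a block (limma, adjusted p = 0.00102), a fit in which 15 class pairs rose and 10 fell. Without balancing, class 1 with itself in cis had a log2 fold change of 0.00 (limma, adjusted p = 0.9365), and the times overlapped.

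The pattern was alike between chromosomes. Trans contacts of class 1 with class 5 stood at 0.497 and 0.495 of expected at 3 h and at 0.439 and 0.429 at 12 h. This was the lowest change of all 30 class pairs, −0.19 (SE 0.0162; limma, adjusted p = 1.40e-05). Trans contacts of class 5 with itself rose from 2.04 and 2.05 to 2.14 and 2.16 (log2 fold change 0.07, SE 0.00935; limma, adjusted p = 0.000125), and class 4 with class 5 rose by 0.06. Class 1 with itself rose from 1.08 and 1.07 to 1.111 and 1.102 in trans (log2 fold change 0.05; limma, adjusted p = 0.00195), but stood at a log2 fold change of 0.00 without balancing (limma, adjusted p = 0.936). Without balancing 17 class pairs changed, of which 6 rose and 11 fell, against 11 and 10 with it. Contacts of class 1 with class 5 fell either way, by 0.17 in cis and 0.18 in trans without balancing. Class 5 with itself rose more without balancing, by 0.10 in cis and 0.13 in trans, as did class 4 with class 5 in trans (0.11).

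Compartment strength, the mean of contacts within classes 1 and 5 over the contacts between them, was 4.22 and 4.15 in cis in the 3 h libraries and 4.93 and 4.84 in the 12 h libraries. The 4 earlier libraries ranged from 3.88 to 4.12, below every 3 h library. In trans it was 3.13 and 3.15 at 3 h and 3.70 and 3.803 at 12 h. As means, cis strength was 4.18 ± 0.0453 (SD, n = 2) at 3 h and 4.89 ± 0.0617 (SD, n = 2) at 12 h. These whole-genome strengths have 2 libraries a side, for which an exact two-sided permutation test cannot give a p below 0.333.

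**Figure D1:**
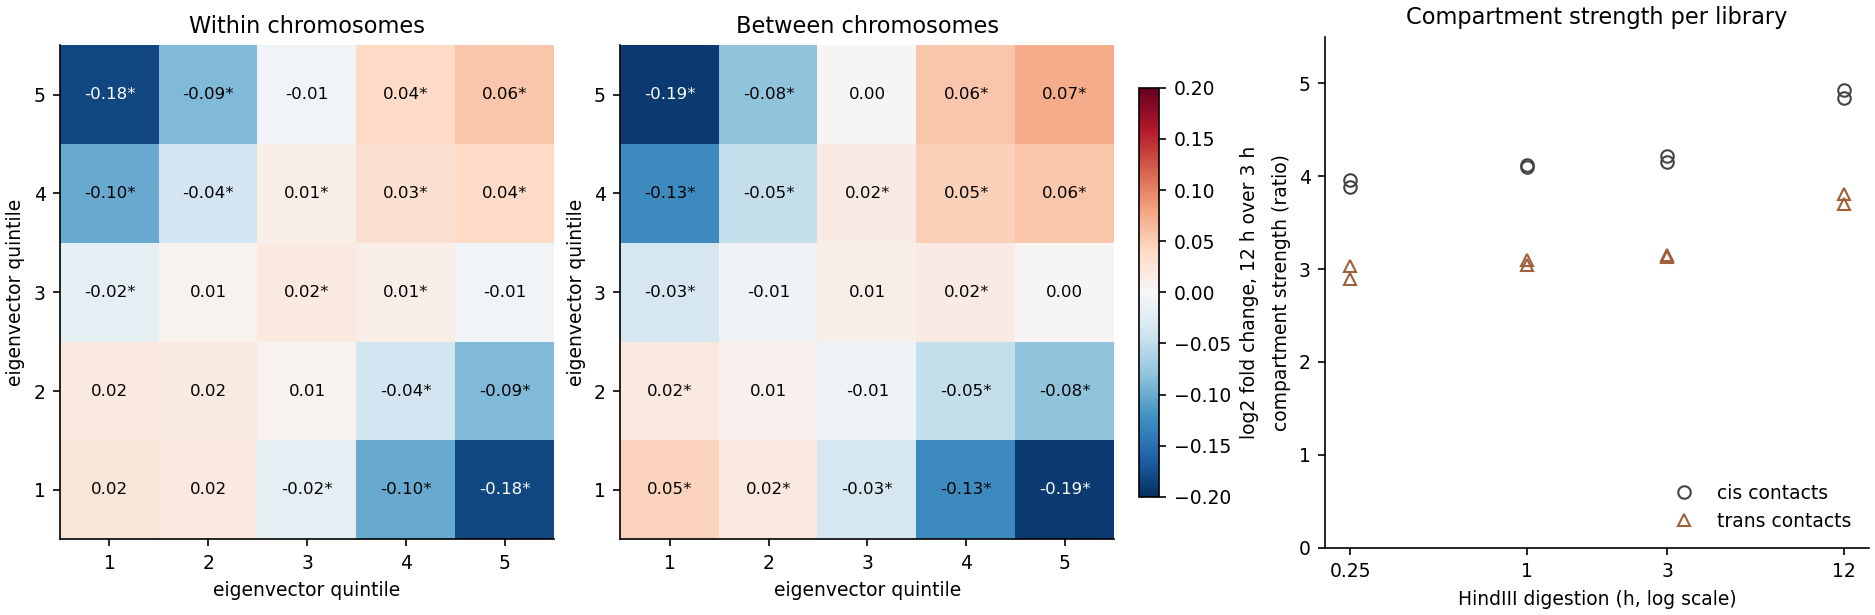
The left and middle panels give the log2 fold change of observed over expected contacts, 12 h over 3 h, for each pair of eigenvector classes within and between chromosomes, with an asterisk where the adjusted p is under 0.05; the corners that pair class 1 with class 5 are lowest, at −0.18 and −0.19. The right panel gives compartment strength per library against digestion time on a log axis, where the 12 h libraries lie above all others for cis contacts (circles) and for trans contacts (triangles).

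Strength was also computed for each chromosome, with its bins ranked into 5 classes within that chromosome rather than over the genome. Each chromosome's share of contact ends and its ratio of trans to cis contacts were added, and the resulting 69 values were adjusted together. Of these, 32 changed (46.4%), of which 28 rose (40.6%) and 4 fell (5.8%; limma, Benjamini-Hochberg). Between 0.25 h and 1 h 5 changed (7.25%). Strength rose on 20 of 23 chromosomes, and on 11 in the first run alone, which held far fewer contacts. On chromosome 1 it was 5.09 and 4.96 at 3 h and 6.38 and 6.17 at 12 h, a log2 fold change of 0.32 (SE 0.0246; limma, adjusted p = 0.000378). On chromosome 20 it was 5.53 and 5.27 at 3 h and 6.67 and 6.36 at 12 h (log2 fold change 0.27), a call lost without 3 h replicate 2 or either 12 h replicate (limma, adjusted p = 0.0533 to 0.106). Both showed no overlap between the times.

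The chromosomes that did not pass were 9, 19 and 22. Chromosome 19 stood at 3.23 and 3.05 at 3 h and 3.53 and 3.38 at 12 h (log2 fold change 0.14; limma, adjusted p = 0.0685). Chromosomes 9 and 22, which take part in the fusion of this line, had strengths between 1.18 and 1.68 in the 3 h and 12 h libraries, against 2.37 to 6.67 on the other 21. On chromosome 22 the log2 fold change was −0.08 (limma, adjusted p = 0.228), but leaving out 3 h replicate 1 gave a fall of −0.16 that was called (limma, adjusted p = 0.00261). Chromosome 9 was the only one on which the second eigenvector was used in place of the first. Its correlation with contacts to gene-rich chromosomes was 0.559, against 0.73 on chromosome 22, 0.590 on chromosome 17 and 0.924 at most. On chromosome 17 strength rose (log2 fold change 0.13), a call lost without 3 h replicate 1. Leaving out chromosomes 9 and 22 left 20 of 30 class pairs changed, of which 10 rose and 10 fell; this alternative was added after the data had been seen.

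The distance over which cis contacts reached also differed. Contacts on the autosomes were sorted by the distance between their bins into 22 classes, each given as a share of all cis contacts between different 100 kb bins. Of these, 16 changed (72.7%), and 11 rose (50%) and 5 fell (22.7%; limma, Benjamini-Hochberg). The share rose from 0.3 to 1.1 Mb, fell from 2.2 to 12.6 Mb and rose again beyond 25.1 Mb.

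Contacts at 0.4 to 0.6 Mb made up 8.91% and 8.86% at 3 h and 9.23% and 9.17% at 12 h, a log2 fold change of 0.05. Those at 4.5 to 6.3 Mb fell from 3.31% and 3.39% to 3.07% and 3.15%, a change of −0.11. Those at 199.5 Mb or more rose from 0.0329% and 0.0339% to 0.0396% and 0.0409%, a change of 0.27 (limma, adjusted p = 0.00798 for each of the 3 classes). In all 3 the libraries of one time lay on one side of those of the other. This does not set them apart, since it held in every class but that of 12.6 to 17.8 Mb, also in classes that did not pass. Among the autosomes only chromosomes 1 and 2 reach 199.5 Mb, and that class held the smallest share of the 22. The closest class, 0.1 to 0.2 Mb, held 21.7% and 21.1% at 3 h and 21.1% and 20.6% at 12 h and did not pass (limma, adjusted p = 0.156). Fewer classes passed when single libraries were left out. Without 3 h replicate 1, and likewise without 12 h replicate 2, 4 rose and 5 fell. Without 3 h replicate 2, 10 rose and 3 fell, and without 12 h replicate 1, 7 rose and 3 fell. The classes from 0.4 to 0.8 Mb, from 3.2 to 8.9 Mb and from 199.5 Mb passed in each of these fits. With the replicate number as a block 22 of 22 classes changed, of which 14 rose and 8 fell, the class of 0.1 to 0.2 Mb among the falls (limma, adjusted p = 0.000162).

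**Figure D2:**
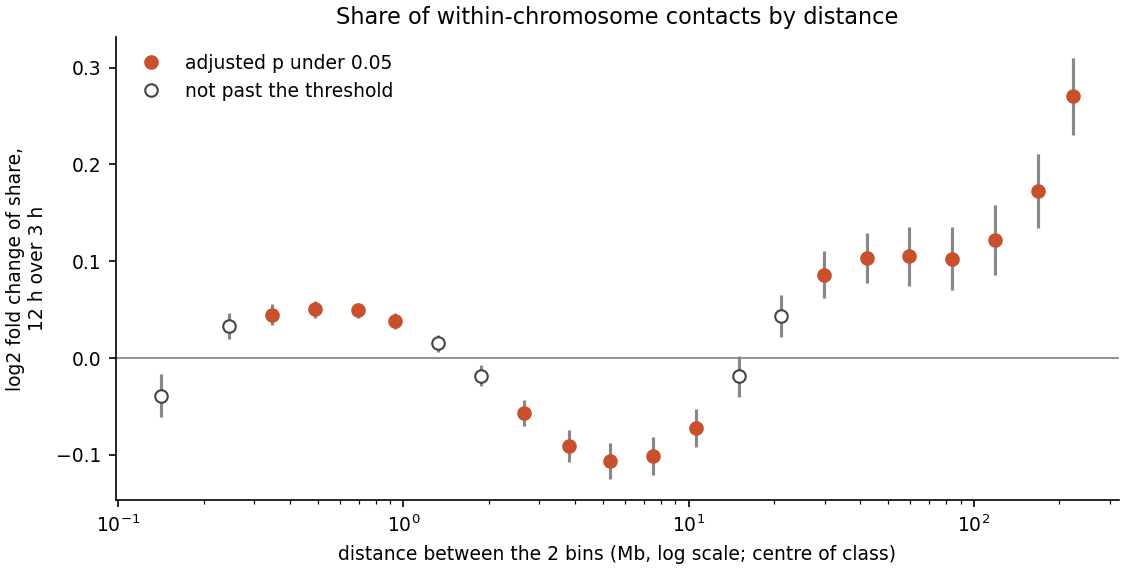
Each point is a distance class, placed at its centre on a log axis in Mb, with the log2 fold change of its share of cis contacts, 12 h over 3 h, and its standard error; filled points have an adjusted p under 0.05. Shares are above 0 from 0.3 to 1.1 Mb, lowest at 4.5 to 6.3 Mb (−0.11) and highest in the class of the longest distances (0.27). Only chromosomes 1 and 2 reach that last class.

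Self-contacts, in which both ends lie in the same bin, fell nearly everywhere. They made up 32.3% and 31.6% of all contacts at 3 h and 25.5% and 24.99% at 12 h. In 20 kb bins of the second run they fell from 18.1% and 17.9% to 11.7% and 11.5%. Besides true short contacts, self-contacts can include fragments that were not cut or were rejoined to a near neighbour. Whether such fragments were filtered out is not given, and the files do not separate these kinds.

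Per 100 kb bin, the ratio of self-contacts to other contacts fell in 25981 of 27756 bins (93.6%) and rose in 7 (0.0252%) (limma, Benjamini-Hochberg). The median bin had a ratio of 0.215 and 0.208 at 3 h and 0.158 and 0.154 at 12 h, a median log2 fold change of −0.44 over all bins. At the earlier steps no bin passed, but 11296 had an unadjusted p under 0.05 between 0.25 h and 1 h, where the median log2 fold change was −0.16, and 524 between 1 h and 3 h, where it was −0.06. In 20 kb bins the median log2 fold change was −0.71. By compartment class the medians ran from −0.42 in class 1 to −0.45 in class 3.

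Bins named here have the largest changes among those past the threshold and at least 1 Mb from one already named. The rule also required both 12 h libraries on the same side of both 3 h libraries, in the sum and in each run. In chr16:8600001-8700000, which held at least 254 self-contacts in every library, the ratio fell from 0.265 and 0.260 to 0.0870 and 0.0952, a log2 fold change of −1.53 (SE 0.179; limma, adjusted p = 3.24e-06). In chr19:18000001-18100000 it fell from 0.483 and 0.470 to 0.183 and 0.177 (−1.41). The lowest change was −1.60 in chr2:107000001-107100000, a bin with only 20 and 16 self-contacts at 3 h and 8 and 5 at 12 h. Among bins that rose, the largest changes that met the rule were 0.49 in chr7:56800001-56900000 and 0.45 in chr9:131100001-131200000. They rest on 34 and 24 and on 46 and 35 self-contacts at 3 h, and neither call held with each library left out. Next, chr19:49500001-49600000 went from 0.0790 and 0.0810 to 0.104 and 0.105 (log2 fold change 0.39; limma, adjusted p = 0.0458), on 103 and 90 self-contacts at 3 h and 256 and 236 at 12 h. This call was lost when any of the 4 libraries was left out (limma, adjusted p = 0.107 to 0.149). The lack of overlap between the times in these bins was set by the rule.

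Trans contacts made up 15.1% and 15.5% of contacts between different bins at 3 h and 15.8% and 15.9% at 12 h, with both 12 h libraries above both 3 h libraries. On none of the 23 chromosomes did the ratio of trans to cis contacts pass the test (median log2 fold change 0.06). With self-contacts counted as cis it rose on 23 of 23, with a median of 0.20, and with the replicate number as a block it rose on 5 and fell on 1. Per bin, the ratio changed in 23 of 27756 bins, 0.0829% (limma, Benjamini-Hochberg; 2364 at an unadjusted p under 0.05), of which 22 rose (0.0793%) and 1 fell (0.0036%). Without 3 h replicate 1 or without 12 h replicate 1, 8 bins passed, without 3 h replicate 2 there were 9, and without 12 h replicate 2 there were 18. The count also depends on what is taken as cis and on the libraries fitted. With self-contacts counted as cis 13451 bins rose and 29 fell, and with only the 3 h and 12 h libraries fitted 581 rose and 120 fell. With the replicate number as a block 42 bins passed.

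Of the 22 bins that rose, 18 lay within 1 Mb of the longest stretch of unused bins on their chromosome, which on most chromosomes spans the centromere. In all, 353 bins lie in such flanks, with a median log2 fold change of 0.034, against 0.027 over all bins. The 22 bins lay on 6 chromosomes, with 7 on chromosome 19, 6 on 12, 4 on 5 and 3 on 11, and several were adjacent. In all 22 bins the cis contacts fell, with a median of −0.32 on the log2 scale, while trans contacts had a median of −0.04. In chr19:28000001-28100000 the ratio rose from 0.186 and 0.182 to 0.265 and 0.241 (log2 fold change 0.46, SE 0.0461; limma, adjusted p = 3.20e-07), as cis contacts changed by −0.38 and trans contacts by 0.02. In chr12:34800001-34900000 it rose from 0.148 and 0.154 to 0.208 and 0.191 (0.40), a call lost without 3 h replicate 1 (limma, adjusted p = 0.0730). In both bins both 12 h libraries lay above both 3 h libraries, which the rule for naming bins required.

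The highest change was 0.58, in chr1:142700001-142800000, from 3.50 and 3.12 to 4.69 and 5.22 (limma, adjusted p = 0.0449), a bin with more trans than cis contacts in every library. It was not called without either 3 h replicate or without 12 h replicate 2 (limma, adjusted p = 0.327 to 0.550). The bin that fell was chr2:5700001-5800000, from 0.380 and 0.408 to 0.284 and 0.299 (−0.44; limma, adjusted p = 0.0161), where cis contacts had a log2 fold change of 0.07 and trans contacts of −0.43. It was not called without either 3 h replicate or without 12 h replicate 1 (limma, adjusted p = 0.0590 to 0.438). Reads in such flanks can belong to repeats, and the files do not give mapping quality. The part of repeats in these changes was not tested. Contacts between the flanks of different chromosomes numbered 1277 and 1310 per 1000000 trans contacts at 3 h and 1135 and 1126 at 12 h. Both 12 h libraries lay below both 3 h libraries.

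The partners of trans contacts differed between the times. Each pair of chromosomes 1 to 22 and X was tested as a share of all trans contacts. Of these, 153 changed (60.5%), of which 96 rose (37.9%) and 57 fell (22.5%; limma, Benjamini-Hochberg). Without 3 h replicate 1, 71 pairs rose and 29 fell, without 12 h replicate 2, 74 rose and 31 fell, and in the first run alone 58 rose and 13 fell. For description, chromosomes 16, 17, 19, 20 and 22 were taken as a gene-rich list and 4, 5, 13, 18 and X as a gene-poor list. The lists were chosen with earlier results known and do not follow gene density strictly: chromosome 20, with 9.06 protein-coding genes per Mb, is below chromosomes 1 (9.32) and 11 (9.985), and X (5.79) is above 2, 3, 8 and 10. All 10 pairs within the gene-rich list rose, with a median log2 fold change of 0.26, against 0.01 over all pairs tested. Within the gene-poor list, 7 of 10 pairs fell and none rose, with a median of −0.05.

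Chromosomes 19 and 22 were joined by 686 and 714 per 1000000 trans contacts at 3 h and by 868 and 915 at 12 h. Both 12 h libraries lay above both 3 h libraries, the highest change of all pairs at 0.35 (SE 0.0254; limma, adjusted p = 5.80e-05). The pair of 17 and 19 went from 1240 and 1298 to 1524 and 1571 (0.29), and that of 16 and 22 from 1123 and 1143 to 1332 and 1392 (0.27). The pair of 2 and 4 fell from 10770 and 10650 to 10160 and 10020, a change of −0.09 (limma, adjusted p = 0.000542). The pair of 4 and 5 went from 8908 and 8850 to 8475 and 8330 (−0.08). Each of these pairs had no overlap between the times, which the rule for naming pairs required.

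These shares hold each chromosome's total of trans contacts as well as its choice of partners. Taken over the number expected from the totals of both chromosomes, 54 pairs changed, of which 20 rose and 34 fell. On this scale the 10 gene-rich pairs still rose, all past the threshold, with a median of 0.06. Of the 10 gene-poor pairs 2 rose, none fell and 8 did not pass, with a median of 0.02, and the pairs of 4 and 18 and of 18 and X stayed below 0. Pairs of a gene-rich with a gene-poor chromosome, of which 10 of 25 had risen and 1 had fallen as shares, showed 1 rise and 11 falls, with a median of −0.03. The pairs of 2 and 4, of 4 and 13 and of 4 and 5 stood at 0.02, 0.02 and 0.00 on this scale.

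Chromosomes 13 and 22 gave the lowest change of all shares, from 3633 and 3581 to 3250 and 3354 per 1000000 trans contacts (−0.13; limma, adjusted p = 0.0118), a call lost without 3 h replicate 1 or without 12 h replicate 1 (limma, adjusted p = 0.0520 and 0.0636). Of the contacts of this pair 81.3% and 81.0% at 3 h and 79.2% and 79.1% at 12 h lay in pairs of 1 Mb bins with over 10 times the expected contacts, as a rearrangement in the line would give. Without all such bin pairs the change was 0.02 (limma, adjusted p = 0.330), and over chromosome totals it was −0.21 (limma, adjusted p = 0.00222). The fused chromosomes 9 and 22 went from 3379 and 3412 to 3917 and 4018 (0.22; limma, adjusted p = 0.00111), and had a change of 0.06 over chromosome totals (limma, adjusted p = 0.127) and of 0.20 without such bin pairs (limma, adjusted p = 0.000281).

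**Figure D3:**
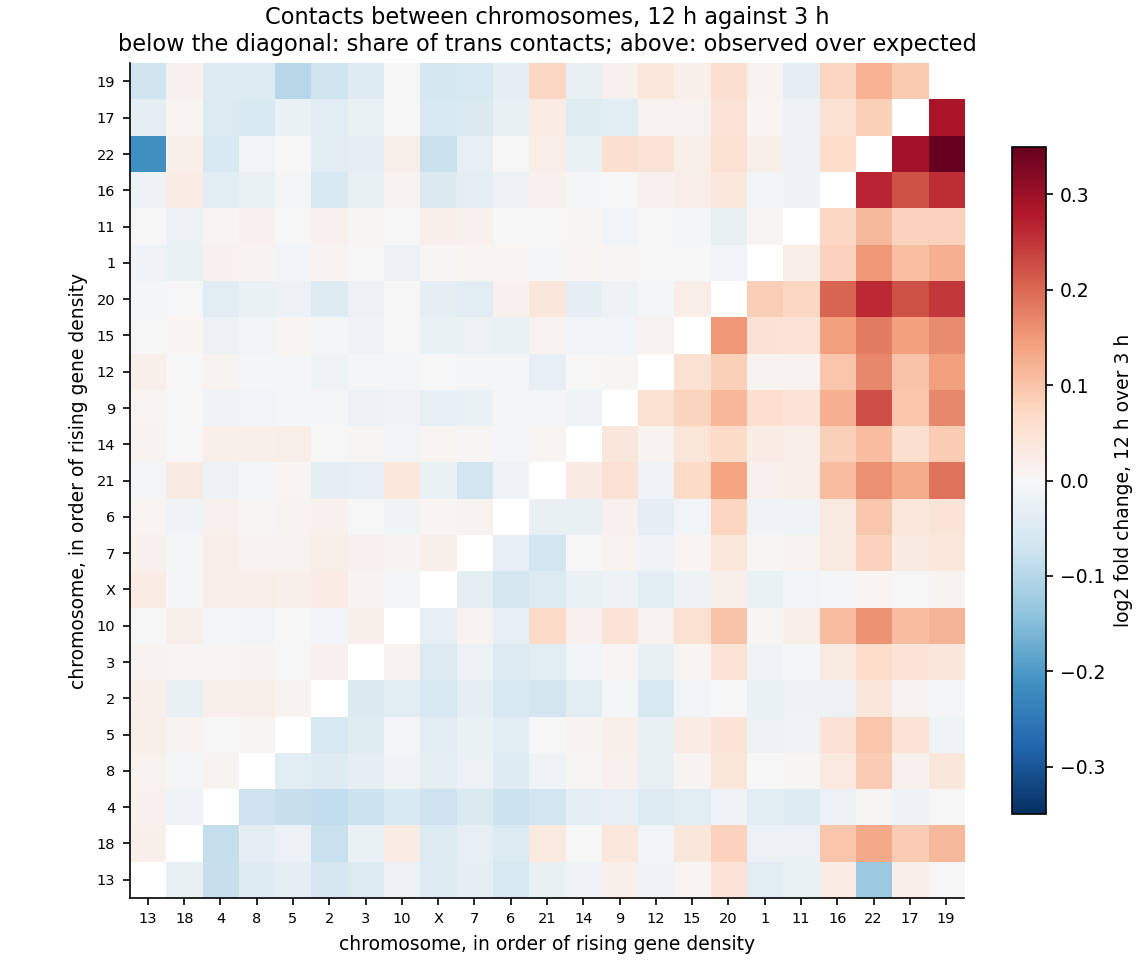
Each square is a pair of chromosomes, in order of rising gene density, coloured by its log2 fold change, 12 h over 3 h. Below the diagonal it is the share of trans contacts, where the gene-rich corner holds the highest value (0.35, chromosomes 19 and 22), and above it the contacts over those expected from chromosome totals, where the 10 gene-rich pairs have a median of 0.06.

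The chromosomes of the gene-rich list gained contacts as a whole. Chromosome 22 held 0.670% and 0.685% of all contact ends between different bins at 3 h and 0.773% and 0.792% at 12 h, a log2 fold change of 0.21 (SE 0.0166; limma, adjusted p = 0.000378). Chromosome 19 rose from 0.856% and 0.862% to 0.952% and 0.959% (0.15). Chromosome 4 fell from 7.82% and 7.75% to 7.52% and 7.44% (−0.06; limma, adjusted p = 0.00364). The times did not overlap on these chromosomes.

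On the gene-rich list 5 of 5 chromosomes rose, with a median of 0.13, and on the gene-poor list none rose and 2, chromosomes 4 and 13, fell, with a median of −0.02. These counts hold for the lists as chosen: chromosomes 1 and 11, denser in genes than chromosome 20, had changes of 0.02 each and did not pass (limma, adjusted p = 0.131 and 0.0940). The fall of chromosome 13 was not called without 3 h replicate 1 or without either 12 h replicate (limma, adjusted p = 0.0603 to 0.106). Over all 23 chromosomes 8 rose and 4 fell, with a median of 0.00. Besides the gene-rich list, chromosomes 9, 10 and 15 rose, and besides the gene-poor list chromosomes 6 and 12 fell. The calls of chromosomes 6, 10 and 12 were lost when any of the 4 libraries was left out (limma, adjusted p = 0.0603 to 0.0845, 0.112 to 0.1996 and 0.113 to 0.153). That of chromosome 15 was lost without 3 h replicate 1 or 12 h replicate 2. Of the 4 falls, that of chromosome 4 passed with each library left out. With the replicate number as a block 11 rose and 7 fell. Chromosomes 1 and 11 were then among the rises (limma, adjusted p = 0.0460 and 0.0447), and of the gene-poor list X rose (limma, adjusted p = 0.0394) while 4, 5 and 13 fell. X also rose with self-contacts included. With only the 3 h and 12 h libraries fitted 6 rose and 1 fell. Across the 23 chromosomes the change went with protein-coding genes per Mb, counted from RefSeq (Pearson's r 0.769, Spearman's rho 0.778). Without chromosomes 19 and 22 the Pearson's r was 0.8004. This is a description across chromosomes of the same libraries. The chromosomes also differ in length, base composition and contacts per bin, and the part of these was not tested. At 3 h chromosome 19 held 0.856% and 0.862% of contact ends over 508 used bins, and chromosome 4 held 7.82% and 7.75% over 1871.

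**Figure D4:**
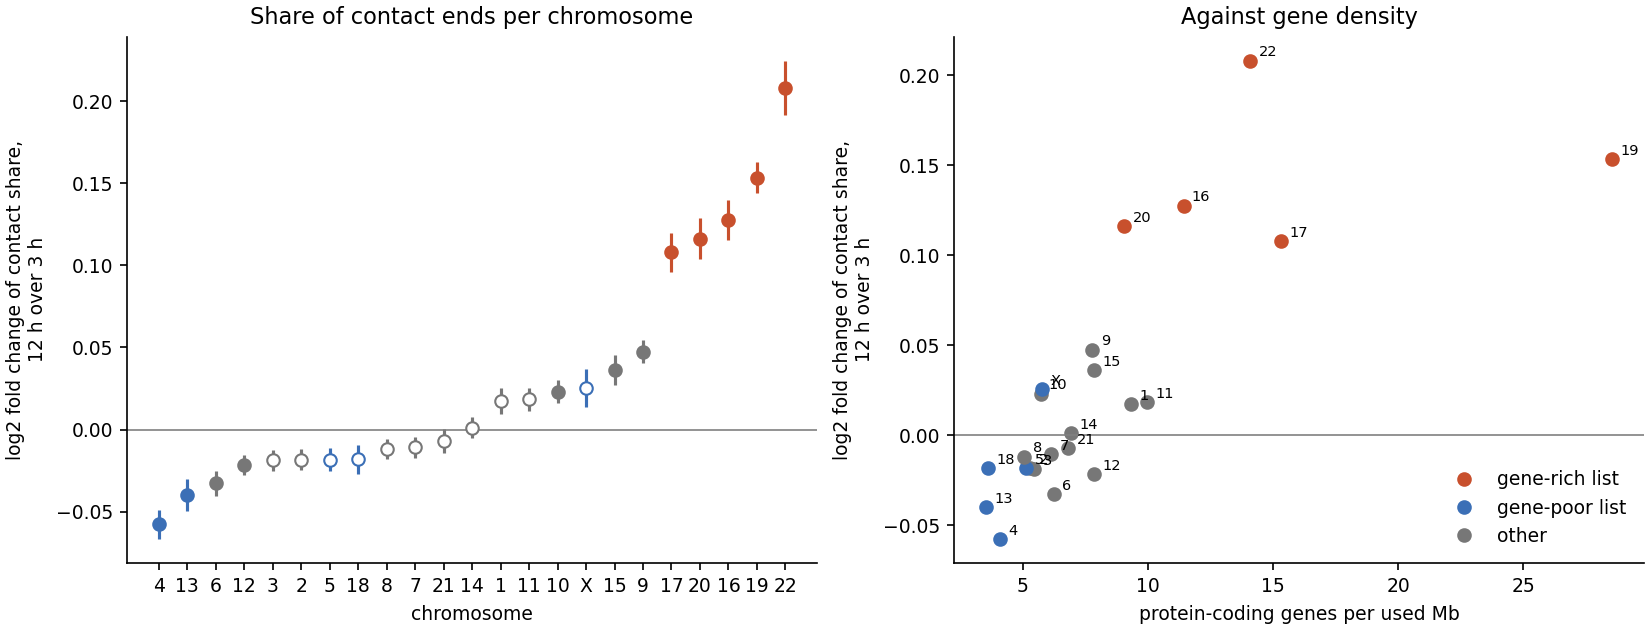
The left panel gives each chromosome's log2 fold change of its share of contact ends, 12 h over 3 h, with its standard error, filled where the adjusted p is under 0.05. The right panel sets the same values against protein-coding genes per Mb; chromosome 22 (0.21) and chromosome 19 (0.15) are highest and chromosome 4 (−0.06) lowest.

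The same shift was seen bin by bin. Coverage is the contacts of a bin with other bins per 1000000 contact ends, where each such contact counts at both of its bins. Of the 13713 bins that changed in coverage, 8335 rose (30% of the bins tested) and 5378 fell (19.4%). On the gene-rich chromosomes 2164 of 2931 bins rose (73.8%) and 55 fell, and on the gene-poor chromosomes 1095 of 6797 rose (16.1%) and 1658 fell. By compartment class, 11.5% of bins rose in class 1, 29.9% in class 3 and 45.2% in class 5. Without 12 h replicate 2, 8168 bins changed.

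Coverage also moved towards a more even spread over bins. In the decile of bins with the lowest coverage in the 0.25 h and 1 h libraries, 2255 of 2776 rose and 21 fell, with a median log2 fold change of 0.25. In the decile with the highest, 52 of 2775 rose and 1686 fell, with a median of −0.09. The order of the classes depended on this level. In the lowest decile the median was 0.05 in class 1 and 0.27 in class 5, in the eighth decile it was −0.03 in both, and in the highest it was −0.06 in class 1 and −0.12 in class 5. Site density and mappability of the bins were not measured here, and their part was not tested.

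The bin chr19:3100001-3200000 had 3.85 and 4.33 contacts per 1000000 contact ends at 3 h and 6.94 and 6.94 at 12 h, a log2 fold change of 0.76 (SE 0.0820; limma, adjusted p = 6.28e-06). It was followed by chr8:145600001-145700000, with 2.52 and 2.50 at 3 h and 4.21 and 4.32 at 12 h (0.76). The others named by the rule were chr19:14400001-14500000 (0.76), chr8:144300001-144400000 (0.72) and chr20:62000001-62100000 (0.71). All 5 lie in class 4 or 5, which hold 5471 and 5524 of the 27756 bins. The 5 bins also had very low coverage, from 2.50 to 4.53 contacts per 1000000 contact ends in the 3 h libraries. In the decile of lowest coverage the median was 10.8 in the 0.25 h and 1 h libraries. Of the 2776 bins in that decile, 1068 lay in class 4 and 931 in class 5. That both 12 h libraries were higher than both 3 h libraries in each was required by the rule.

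Among bins that fell, chr6:26700001-26800000 went from 18.8 and 18.7 contacts per 1000000 contact ends to 14.1 and 14.1 (−0.41; limma, adjusted p = 1.99e-05). The bin chr3:151900001-152000000 went from 86.0 and 86.0 to 66.8 and 65.6 (−0.38). Far more contacts lay in chr12:34700001-34800000, which went from 163 and 163 to 130 and 128 (−0.34). The first 2 of these bins are in class 4, and the last lies beside the longest gap of its chromosome. Its cis contacts fell by 0.38, while its trans contacts, at −0.04, did not pass (limma, adjusted p = 0.647).

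Of 129518 pairs of 1 Mb bins within a chromosome, 1576 changed in observed over expected contacts, 1.22%, of which 936 rose (0.723%) and 640 fell (0.494%; limma, Benjamini-Hochberg; 12250 at an unadjusted p under 0.05). Of 25020 pairs with both bins in classes 4 and 5, 518 rose and 41 fell. Of 30136 pairs of opposite classes, 17 rose and 297 fell. Of 26504 pairs with both bins in classes 1 and 2, 115 rose and 114 fell. The split depends on the scale, since contacts scaled only to the library total gave 3880 changed pairs, 1360 higher and 2520 lower, and balanced bins gave 519, of which 235 were higher and 284 lower. The classes followed the scale too. With balanced bins 24 pairs of classes 4 and 5 rose and 11 fell, against 141 and 10 for classes 1 and 2. Scaled to the library total, 719 rose and 120 fell in classes 4 and 5, against 176 and 391 in classes 1 and 2. Pairs of opposite classes fell on all 3 scales more often than they rose, 1352 against 41 as contacts scaled to the library total and 200 against 0 when balanced. The count of changed pairs was 391 and 549 without 3 h replicates 1 and 2, and 533 and 351 without 12 h replicates 1 and 2.

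The pair chr6:26000001-27000000 with chr6:58000001-59000000 stood at 1.94 and 1.96 of expected at 3 h and at 1.00 and 0.997 at 12 h, the lowest change of those named (−0.96, SE 0.136; limma, adjusted p = 2.81e-05). It rests on 240 and 193 contacts at 3 h and 171 and 152 at 12 h. The pair chr11:49000001-50000000 with chr11:89000001-90000000 fell from 6.06 and 5.48 to 3.24 and 2.89 (−0.91), and chr2:87000001-88000000 with chr2:112000001-113000000 from 4.94 and 4.74 to 2.72 and 2.68 (−0.84). These 3 pairs span 25 to 40 Mb, and the fall passed the threshold on balanced bins too. The pairs named as rising did not: the highest, chr1:2000001-3000000 with chr1:3000001-4000000, went from 0.141 and 0.153 to 0.223 and 0.248 (0.68), but had a log2 fold change of 0.07 on balanced bins (limma, adjusted p = 0.868). For the falling pairs, a part of reads from repeats was not tested, since mapping quality is not given. The falling pair on chromosome 6 holds chr6:26700001-26800000, named above for its fall in coverage. It also holds chr6:58100001-58200000, a boundary beside the longest gap of the chromosome with the largest shift in score. These results thus draw on the same regions.

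Boundaries, the object of the series, did not pass the test. Scores were taken at 2762 boundaries found in the 0.25 h and 1 h libraries, with each library thinned to 25644918 cis contacts within 2 Mb. The insulation score is the log2 of the contacts crossing a bin over the chromosome's mean, so a low score marks few crossing contacts. None changed, 0% of those tested (limma, Benjamini-Hochberg; smallest adjusted p = 0.416), and 155 had an unadjusted p under 0.05, of which 72 were lower and 83 higher. The median score was −0.51 at 3 h and −0.50 at 12 h.

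The SD over boundaries of the difference between the means of the times was 0.0644. That of the difference between single replicates was 0.0845 at 3 h and 0.0831 at 12 h, which cannot be set directly against it, since averaging libraries lowers such an SD. At the 804 boundaries where the sign of the eigenvector changes, the median score was −0.67 at both times. With 40 kb bins of the second run, none of 5483 boundaries passed (283 at an unadjusted p under 0.05). Without balancing, 320 of the 2762 passed, of which 249 were higher and 71 lower.

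**Figure D5:**
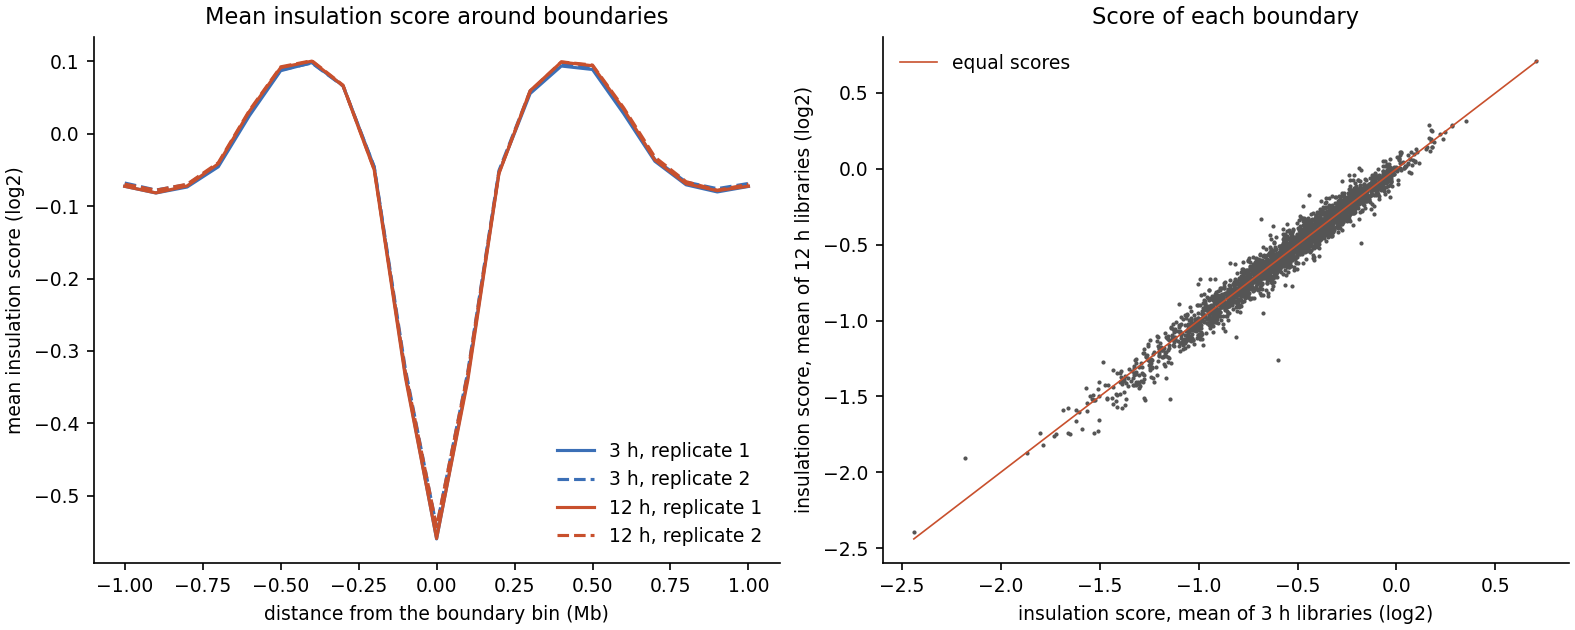
The left panel gives the mean insulation score per library against the distance from the boundary in Mb; the 4 curves lie over each other. The right panel sets the mean score of the 12 h libraries against that of the 3 h libraries for each of the 2762 boundaries, with a line of equal scores; the point farthest below the line is the boundary on chromosome 6.

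Called separately, boundaries numbered 2832 and 2788 in the 3 h libraries and 2735 and 2728 in the 12 h libraries. Boundaries called in both libraries of a time numbered 2626 at 3 h and 2547 at 12 h. Of the latter, 11 (0.432%) had none within 2 bins in either 3 h library, and of the former, 43 (1.64%) had none in either 12 h library. The largest shift in score, picked out after the values had been seen, was at chr6:58100001-58200000, with −0.72 and −0.49 at 3 h and −1.22 and −1.31 at 12 h, and it did not pass (limma, adjusted p = 0.819).

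Coverage of the boundary bin against bins 300 to 400 kb away, a measure added after the data had been seen, changed at 765 of the 2762 boundaries, 27.7%, of which 417 rose (15.1%) and 348 fell (12.6%; limma, Benjamini-Hochberg). The mean over boundaries went from −0.0246 and −0.0206 on the log2 scale at 3 h to −0.0171 and −0.0151 at 12 h. No such count is given here for bins away from boundaries, and 49.4% of all 100 kb bins changed in coverage. The count can therefore not be called particular to boundaries. The highest change lay at chr1:202000001-202100000 (0.40, from −1.98 and −2.004 to −1.61 and −1.57) and the lowest at chr9:130800001-130900000 (−0.43, from 0.53 and 0.51 to 0.12 and 0.06). The count was 295 and 386 without 3 h replicates 1 and 2, 321 and 135 without 12 h replicates 1 and 2, and 1 in the first run alone. The self-contact ratio of the boundary bin over the same flanks changed at 63 boundaries (2.28%), of which 30 rose (1.09%) and 33 fell (1.19%), and at none when any of the 4 libraries was left out. With the replicate number as a block it changed at 156.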

How the data were processed

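Hi-C of K562 nuclei gave 16 deposited files from 8 libraries, 2 runs each. Each holds pairs of bins (50 kb in the first run, 20 kb in the second) with a balanced contact signal, deposited by the authors. Reads were processed with HiC-Pro 2.11.1 and Bowtie2 2.3.4.1 on build hg19, per the submitters' processing notes. Their filters are not given in the sources used here. Bin numbers were read as hg19 positions through chromosomes 1 to 22, X, Y and M, which is inferred from their number. As a signal is a whole number of contacts times a factor for each bin, whole contacts were recovered. All values came within 0.01 of a whole number, and 77.1% to 78.3% of pairs held 1 contact.

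Contacts were summed in 100 kb bins (27756 of 30376 used, at least 50% present in all files), 500 kb bins (5593) and 1 Mb bins (2791). Each family of features was tested on log2 values (pseudocount 0.5 contacts) with limma 3.58.1 in R 4.3.3. All 8 libraries entered the fit, with 4 residual degrees of freedom, the contrast was 12 h minus 3 h, and Benjamini-Hochberg adjustment ran over the whole family with a threshold of 0.05. Pairs of 1 Mb bins needed a mean of 20 contacts. Boundaries had a prominence of at least 0.2 in a square of 500 kb. Scripts used Python 3.11.15, numpy 2.4.6, scipy 1.17.1, pandas 2.3.3 and numba 0.67.0, and were tested on simulated data.

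The features named were the 5 (boundaries: 3) with the largest change in each direction, past the threshold, with both 12 h libraries on the same side of both 3 h libraries in the sum and in each run, and at least 1 Mb apart. The members and lists were chosen with earlier results of these data known. Replicates of one number were checked for pairing by the correlation of their deviations from the group means. It was 0.224 to 0.465 over 6 pairs of times for bin coverage, above 0.1 in each, and 0.0393 to 0.227 for self-contacts. For pairs of 1 Mb bins it was 0.000584 to 0.0197. Distance classes were not in this check. At each time replicate 1 had a larger share than replicate 2 at 0.1 to 0.2 Mb and a smaller one at 4.5 to 6.3 Mb. The main fit did not take the replicate number into account. The alternatives tried were single libraries left out, each run alone, equal contact totals, a replicate block, only the libraries compared, other scalings and other bin sizes. Apart from the fusion known in this line, placed from background knowledge, no gene is named and no sequence printed, since no hg19 annotation or genome was used here. Gene numbers per chromosome came from RefSeq of a later assembly.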

Additional observations from a re-analysis of the deposited data

Results flagged for a closer look

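Contacts between mitochondrial and nuclear DNA, which the comparisons do not use, were present in all 4 libraries. They numbered 486.9 and 270.1 per 1000000 contacts in 3 h replicates 1 and 2, and 1047 and 128.5 in 12 h replicates 1 and 2. The replicates of 12 h differed more from each other than the times did. Of all mitochondrial contacts, 58.6% and 42.1% joined nuclear DNA at 3 h, and 93.0% and 71.7% at 12 h. The 4 earlier libraries held 187, 557, 196 and 157. Their part in the results was not tested.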

How the results depend on the processing

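Of 961 values of 85 features under the alternatives, 856 kept direction and side of the threshold, 91 no longer passed, 8 newly passed and 6 reversed. Part of this tally was fixed by the choice of features. Bins, 1 Mb pairs and boundaries were named for passing and for no overlap between the times in the sum and in each run. A single run or a left-out library could therefore not reverse their direction. The replicate block and the fit of only the compared libraries leave every fold change as it was. The reversals were the chromosome pair 13 and 22 without rearrangement-like pairs (0.0207), the pairs 2 and 4 (0.0187), 4 and 13 (0.0152) and 4 and 5 (0.0023) over chromosome totals, strength on chromosome 22 with a library left out (from −0.1579 without 3 h replicate 1, where it passed, to 0.0013 without 3 h replicate 2), and strength on chromosome 13 in the first run (−0.0319). The cause was not tested. With a library left out, the lone sample of its time was assumed to vary like the other groups. The counts then ranged from 8168 to 11379 for bin coverage, 23356 to 24993 for self-contacts, 8 to 18 for the trans to cis ratio, 100 to 143 for chromosome pairs, 351 to 549 for 1 Mb pairs, 9 to 13 for distance classes, 26 to 28 for chromosome summaries, 16 to 19 for class pairs, 135 to 386 for boundary coverage, and 0 to 0 for insulation and for boundary self-contacts. In the first run alone the counts were 3718 for coverage, 3 for the trans to cis ratio, 71 chromosome pairs, 97 of 37951 pairs of 1 Mb, 1 for boundary coverage and 0 for boundary self-contacts. Other moved counts were coverage from trans contacts (2540) and in 500 kb bins (3325 of 5593), chromosome pairs over chromosome totals (54), 1 Mb pairs scaled to the library total (3880) or balanced (519), summaries with self-contacts (57), and insulation without balancing (320). The trans to cis ratio gave 13480 bins with self-contacts counted as cis, 15 with libraries thinned to the same total of contacts and 701 with only the compared libraries fitted, which gave 4017 for 1 Mb pairs and 725 for boundary self-contacts.

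With the replicate block, 42 bins passed for the trans to cis ratio and 156 boundaries for self-contacts. No other total moved by over 1.5 times under the block, with 16477 bins for coverage and 2355 of the 1 Mb pairs. Among counts by direction, falls went from 640 to 1009 for 1 Mb pairs, from 4 to 8 for chromosome summaries and from 5 to 8 for distance classes, all 22 of which changed.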
